A study of Mus musculus with 4 samples.

Results

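The genes followed here are 10 widely used readouts of the transcription cofactors YAP and TAZ: Ctgf, Cyr61, Ankrd1, Amotl2, Lats2, Crim1, Axl, Ptpn14, Ccdc80 and Arhgef17. They were chosen by name, with earlier results of these data known. All 10 were found among the 23930 amplicons of the deposited table, where each gene is read through a single short target. The cells were primary progenitors from the subcutaneous tissue of C57BL/6 mice that carry a floxed Gnas allele, called SMPs in the labels. Gnas encodes the stimulatory G protein alpha subunit. There were 4 libraries in 2 groups of 2. The Gnas KO group (genotype Gnas-/-) received an adenovirus with Cre recombinase (Ad-Cre), and the WT GFP group (genotype wild type) received an adenovirus with green fluorescent protein (Ad-GFP). Both groups share the floxed background, an adenoviral infection and 7 days of culture under osteogenic conditions. The viruses differ along with the genotype, so effects of Cre itself and effects of losing Gnas cannot be told apart.

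YAP and TAZ (encoded by Yap1 and Wwtr1) have no DNA-binding domain of their own and act mainly through the TEAD transcription factors. The Hippo kinases, ending in LATS1 and LATS2, phosphorylate both cofactors and hold them out of the nucleus. Cyclic AMP, which the Gnas product raises through adenylyl cyclase, is known to act through protein kinase A to favour LATS activity. Several targets feed back on the pathway, since Lats2, Amotl2 and Ptpn14 encode proteins that restrain YAP.

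TEAD factors bind the core GGAATG, and the promoters of the followed genes were read for it because it ties these genes to the pathway. RefSeq windows of GRCm38.p6, from 250 bases before to 50 bases after a transcription start, were at hand for 7 of the 10 genes (Cyr61 is listed there as Ccn1). Ctgf, Ccdc80 and Arhgef17 were not matched. All 7 genes had GGAATG or its reverse complement CATTCC in a window. By window this was 7 of their 8, against 14.7% of 32817 windows of the same length. These genes are known as YAP targets, so the matches are a description and not a test. The windows shown are those of Ankrd1 and Cyr61, split between the control libraries, of Amotl2 and Ptpn14, higher in both KO libraries, and of Axl, lower in both. They read 5′ to 3′ as follows, with the TEAD core on either strand in capitals.
Ankrd1, chr19:36119795-36120094, minus strand: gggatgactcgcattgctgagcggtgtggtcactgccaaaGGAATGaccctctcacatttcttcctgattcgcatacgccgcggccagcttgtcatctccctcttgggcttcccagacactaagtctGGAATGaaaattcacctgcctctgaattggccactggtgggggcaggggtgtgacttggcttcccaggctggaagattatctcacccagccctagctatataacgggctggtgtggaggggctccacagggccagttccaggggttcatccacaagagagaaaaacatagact
Cyr61, chr3:145649936-145650235, minus strand: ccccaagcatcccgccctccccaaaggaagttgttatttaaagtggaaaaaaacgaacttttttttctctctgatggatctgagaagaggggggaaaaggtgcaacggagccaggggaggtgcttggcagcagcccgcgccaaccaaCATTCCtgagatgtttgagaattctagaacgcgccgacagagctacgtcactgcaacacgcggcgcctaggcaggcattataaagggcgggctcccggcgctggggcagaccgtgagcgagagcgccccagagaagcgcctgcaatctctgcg
Amotl2, chr9:102717554-102717853, plus strand: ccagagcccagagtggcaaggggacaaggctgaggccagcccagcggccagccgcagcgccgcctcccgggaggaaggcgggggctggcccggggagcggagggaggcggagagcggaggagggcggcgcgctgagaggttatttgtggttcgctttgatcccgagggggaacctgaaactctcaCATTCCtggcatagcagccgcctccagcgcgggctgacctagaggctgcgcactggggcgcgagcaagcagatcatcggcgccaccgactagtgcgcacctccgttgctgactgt
Ptpn14, chr1:189728018-189728317, plus strand: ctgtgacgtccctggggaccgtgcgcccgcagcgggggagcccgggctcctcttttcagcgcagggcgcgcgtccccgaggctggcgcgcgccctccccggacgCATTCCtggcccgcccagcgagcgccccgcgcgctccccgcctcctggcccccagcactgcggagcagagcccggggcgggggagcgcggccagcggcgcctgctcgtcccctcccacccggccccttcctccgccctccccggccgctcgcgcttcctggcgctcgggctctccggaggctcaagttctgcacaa
Axl, chr7:25788684-25788983, minus strand: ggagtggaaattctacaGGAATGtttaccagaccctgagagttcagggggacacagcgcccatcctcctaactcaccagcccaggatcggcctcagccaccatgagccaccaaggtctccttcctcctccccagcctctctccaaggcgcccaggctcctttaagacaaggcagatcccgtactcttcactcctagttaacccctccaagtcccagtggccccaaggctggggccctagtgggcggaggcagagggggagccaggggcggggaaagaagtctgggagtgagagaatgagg
The first base of the core lay 210 and 123 bases before the start in Ankrd1, 103 in Cyr61, 65 in Amotl2, 146 in Ptpn14 and 233 in Axl. In Crim1 it lay 79 bases before the start, and in the first of the Lats2 windows at base 5 after it, while the second Lats2 window had none. Ankrd1 carried 2 cores, and 1.36% of all windows carried 2 or more. The core of the cyclic AMP response element, TGACGTCA, was in none of the 7 genes' windows (0 of 7, against 1.79% of all windows). Its half-site TGACG, read on both strands, was present for Cyr61, Lats2 (first window only) and Ptpn14, 3 of 7 genes. The share by window was 20.8% of all windows. The AP-1 motif TGANTCA (7.81% of all windows) and the CArG box of serum response factor (1.63%) were found in 0 of 7. The half-site is contained in the full element, and the absence of a match says only that these letters are not in these windows.

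The libraries held 17460018 reads in Gnas KO 1, 14847959 in Gnas KO 2, 18455811 in WT GFP 1 and 13483518 in WT GFP 2, recovered from the steps of the RPM values (reads scaled to a common library size). The 2 control libraries stood further apart than the 2 KO libraries: 18.2% of the 11638 tested genes differed by more than 2-fold between the controls, against 2.99% between the KO libraries. Xist was at 395, 419, 165 and 0 RPM and the Y-linked gene Ddx3y at 26.9, 12.5, 61.4 and 124 RPM in Gnas KO 1, Gnas KO 2, WT GFP 1 and WT GFP 2. The summed level of 12 macrophage markers was 30.2 and 16.9 RPM in the KO libraries, 50.6 RPM in WT GFP 1 and 979 RPM in WT GFP 2. Lyz2 alone was at 822 RPM in WT GFP 2, while Adgre1 was at 1.71 RPM and Mrc1 at 1.48 RPM. Of the 12, 10 were highest in WT GFP 2, all but C1qa and C1qb, which were at or under 1 RPM in every library. The summed level of 8 endothelial markers was also highest in that library, at 92.9 RPM. The summed level of the mesenchymal markers (10 of 12 measured) was 30287 and 33537 RPM in the KO libraries and 13474 and 16409 RPM in WT GFP 1 and 2, carried mostly by Col1a1, Col1a2 and Thy1. Of these 10, Cd34 was at 0.054 to 12.6 RPM and Dpp4 at 0 to 1.19 RPM. All 8 keratinocyte markers were at or under 1 RPM in every library, with Krt5, Krt17 and Krt1 at 0. Gnas itself was not analysed here, so the knockout was not checked at its own transcript. Whether the pair of libraries in each group had separate mice or cultures as their source is not stated in the labels. Xist had 3036 reads in WT GFP 1 and 0 in WT GFP 2, so these 2 controls did not hold the same mix of cells. Xist and Ddx3y also differed between the groups, and the part of the sex of the source mice in the differences below was not tested. The p-values below cover the spread between these libraries alone.

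Only Ccdc80 among the 10 targets passed the test between Gnas KO and WT GFP cells, and it was higher in the KO cells. Amotl2, Ptpn14, Arhgef17 and Lats2 were also above both controls in both KO libraries without passing, and Axl was below both. Ctgf, Cyr61, Crim1 and Ankrd1 overlapped between the groups, because the control libraries lay far apart. All 10 passed the filter on low values (at least 1 RPM in at least 2 libraries). The test was limma on log2(RPM + 1) with adjustment over all tested genes and a threshold of 0.05. It called 1 of 10 higher, against 1.73% of all tested genes, and 0 of 10 lower, against 0.576%. At an unadjusted p under 0.05 it placed 4 of 10, all higher, against 1380 of all 11638 tested genes that were higher. In either direction it placed 17.9% of all tested genes there. The groups did not overlap for 5 of 10 genes with KO above (30.6% of all tested genes) and 1 of 10 with KO below (21.1%). The median log2 fold change of the 10 was 0.59, beside 0.08 for all tested genes. That median was 1.15 without WT GFP 2, beside 0.02 for all tested genes, and 0.15 without WT GFP 1, beside 0.14.

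Counting error was small. The members held 663 to 75515 reads per library, which puts the exact 95% Poisson half-width between 0.714% and 7.69% of the value (this covers counting error only, since amplified reads carry no molecular identifiers).

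**Figure D1:**
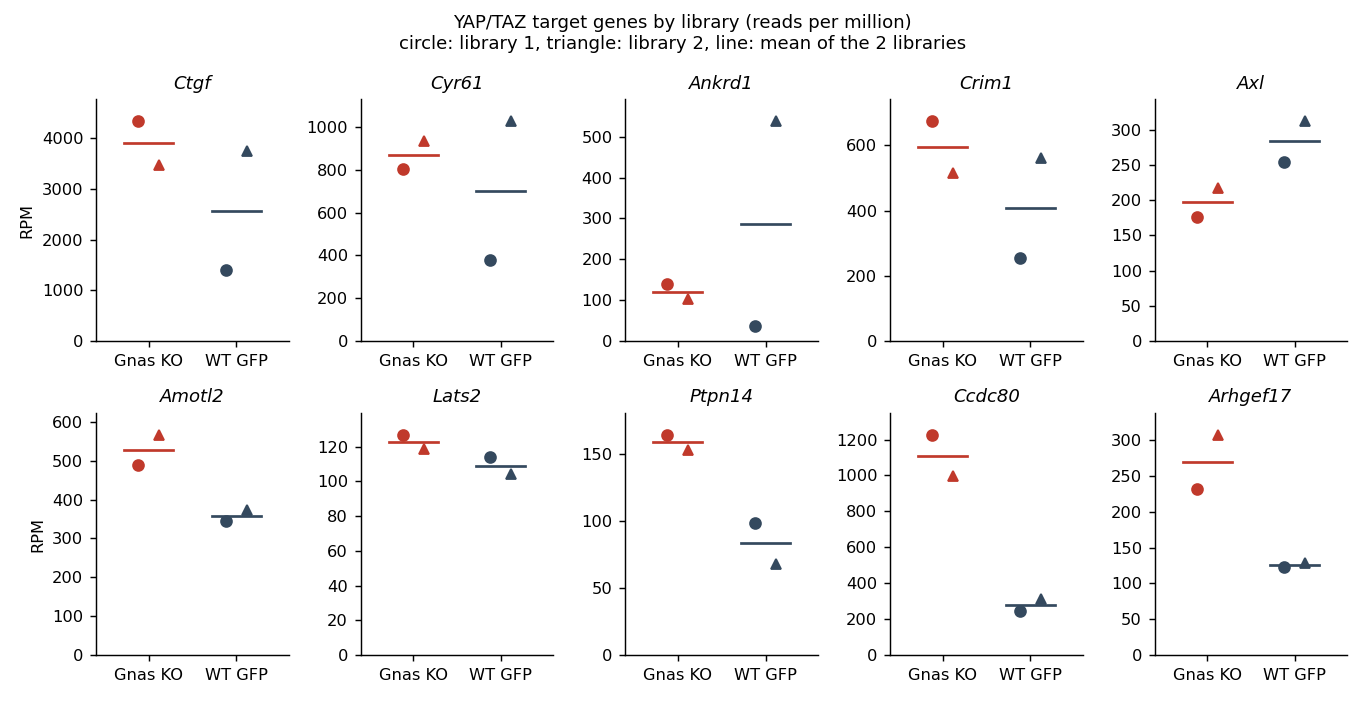
RPM of each of the 10 target genes in the 2 Gnas KO libraries (red, left) and the 2 WT GFP libraries (dark, right), each axis from 0, with the mean as a line. Ccdc80 sits at 995 and 1224 RPM in the KO libraries, against 243 and 312 RPM in the controls, while Ctgf, Cyr61, Crim1 and Ankrd1 are split between the controls.

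Ctgf and Cyr61 encode secreted matricellular proteins of the CCN family and are the most used YAP readouts. Ctgf stood at 4325 RPM in Gnas KO 1 and 3459 RPM in Gnas KO 2, against 1399 RPM in WT GFP 1 and 3738 RPM in WT GFP 2. The KO libraries were both above WT GFP 1, and WT GFP 2 lay between them. The log2 fold change was 0.76 (SE 0.55, limma adjusted p = 0.526, 95% interval -0.63 to 2.14). Cyr61 stood at 802 and 933 RPM in Gnas KO 1 and 2, against 378 RPM in WT GFP 1 and 1026 RPM in WT GFP 2. Here WT GFP 2 was the highest library of all. Its log2 fold change was 0.47 (SE 0.50, limma adjusted p = 0.671, interval -0.80 to 1.75).

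Crim1 encodes a transmembrane protein with cysteine-rich repeats that binds BMPs. It stood at 673 and 516 RPM in Gnas KO 1 and 2, against 256 RPM in WT GFP 1 and 560 RPM in WT GFP 2. WT GFP 2 again fell between the KO libraries (log2 fold change 0.64, SE 0.42, limma adjusted p = 0.493). Ankrd1 encodes an ankyrin repeat protein of the nucleus and the sarcomere, known best from heart muscle. It stood at 139 and 102 RPM in Gnas KO 1 and 2, against 35.9 RPM in WT GFP 1 and 537 RPM in WT GFP 2. Both KO libraries were above WT GFP 1 and below WT GFP 2, which gave a log2 fold change of -0.23 with the widest interval of the 10 genes (-3.32 to 2.87, limma adjusted p = 0.941). On the recovered reads it was -1.37 with edgeR (adjusted p = 0.601) and -1.40 with DESeq2 (0.729).

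These 4 genes were the members that differed more than 2-fold between the controls. WT GFP 2 exceeded WT GFP 1 by 15.0-fold for Ankrd1, 2.71-fold for Cyr61, 2.67-fold for Ctgf and 2.19-fold for Crim1. Among all tested genes, 7.64% were more than 2-fold higher in WT GFP 2 than in WT GFP 1. No member differed by more than 2-fold between the KO libraries. The mean KO level was 2.78 times that of WT GFP 1 for Ctgf, 2.29 times for Cyr61, 2.32 times for Crim1 and 3.36 times for Ankrd1. Against WT GFP 2 the same means were 1.04, 0.846, 1.06 and 0.225 times.

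**Figure D2:**
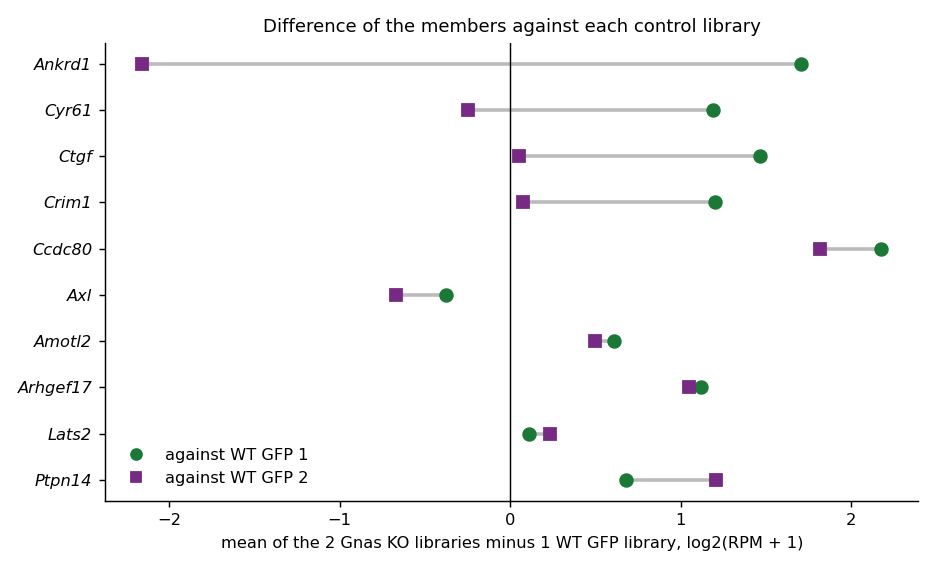
Difference in log2(RPM + 1) between the mean of the 2 Gnas KO libraries and each WT GFP library on its own (circles WT GFP 1, squares WT GFP 2), ordered by the gap between the controls. Ankrd1 runs from 1.71 against WT GFP 1 to -2.16 against WT GFP 2, and Cyr61 also crosses 0. Both values of the other 8 genes lie on one side of 0, those of Ctgf and Crim1 against WT GFP 2 at 0.05 and 0.07.

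Which control entered the fit changed the calls of these genes. Without WT GFP 2, the library with 979 RPM of macrophage markers, 6 of 10 members passed as higher, against 9.15% of all tested genes: Ctgf (log2 fold change 1.47, limma adjusted p = 0.0119), Cyr61 (1.19, 0.00998), Crim1 (1.20, 0.0136), Ankrd1 (1.71, 0.00448), Ccdc80 and Arhgef17. None passed as lower (6.82% of all tested genes). Without WT GFP 1, 3 of 10 passed as higher, against 13.8%: Ccdc80, Arhgef17 and Ptpn14. In that fit Ankrd1 was the 1 of 10 that passed as lower, against 6.89% (-2.16, limma adjusted p = 0.00158). In each such fit the lone control is assumed to vary like the KO pair, which was the tighter of the 2 groups. Without either KO library, no member and no gene passed in either direction (0% of all tested genes), and the adjusted p of Ccdc80 was 0.549 and 0.565. The part of the RNA behind these macrophage markers, mostly Lyz2, in these differences was not tested. In bulk libraries, fewer cells of a type and less RNA per cell cannot be told apart.

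Amotl2, Lats2 and Ptpn14 act as brakes on YAP. Amotl2, an angiomotin that binds YAP in the cytoplasm, stood at 490 and 566 RPM in Gnas KO 1 and 2, against 344 and 373 RPM in WT GFP 1 and 2. The KO libraries were both above the controls, by 1.47 times in the means (log2 fold change 0.55, SE 0.22, limma adjusted p = 0.279). Ptpn14, a phosphatase that binds YAP, stood at 164 and 153 RPM in Gnas KO 1 and 2, against 98.3 and 68.0 RPM in WT GFP 1 and 2. The groups did not overlap and the KO mean was 1.90 times the control mean (log2 fold change 0.94, SE 0.25, limma adjusted p = 0.152). DESeq2 on the recovered reads called it (adjusted p = 0.0494), as 1 of 3 members called higher, against 5.14% of all genes that it tested. Lats2, the kinase itself, stood at 127 and 119 RPM in Gnas KO 1 and 2, against 114 and 104 RPM in WT GFP 1 and 2. The KO libraries were higher without overlap, but the 95% counting intervals of Gnas KO 2 (114 to 125 RPM) and WT GFP 1 (109 to 119 RPM) met, and the log2 fold change was 0.17 (interval -0.33 to 0.67, limma adjusted p = 0.698).

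Axl, a receptor tyrosine kinase, was the one member below both controls. It stood at 176 and 218 RPM in Gnas KO 1 and 2, against 255 and 312 RPM in WT GFP 1 and 2. The KO mean was 0.695 times the control mean (log2 fold change -0.52, SE 0.23, limma adjusted p = 0.325).

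Ccdc80 and Arhgef17 had the largest positive fold changes of the 10. Ccdc80, which encodes a secreted protein of the extracellular matrix, stood at 1224 and 995 RPM in Gnas KO 1 and 2, against 243 and 312 RPM in WT GFP 1 and 2. Every KO library was more than 3-fold above every control, and the means were 1109 ± 162 and 278 ± 48.8 RPM (SD, n = 2 each). The log2 fold change was 2.00 (SE 0.26, limma adjusted p = 0.0347). Its call was lost when every detected gene was tested (adjusted p = 0.0754) and with edgeR on the recovered reads (0.0653). In those fits no member passed, against 0.289% and 0.567% of the tested genes called higher. Over 13 alternatives the adjusted p ran from 2.24e-07 to 0.565. Arhgef17, which encodes an exchange factor that activates RhoA, stood at 232 and 307 RPM in Gnas KO 1 and 2, against 122 and 129 RPM in WT GFP 1 and 2. The groups stood apart with a ratio of means of 2.15, yet the gene did not pass (log2 fold change 1.08, SE 0.23, limma adjusted p = 0.0963), though DESeq2 called it (adjusted p = 0.0134).

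**Figure D3:**
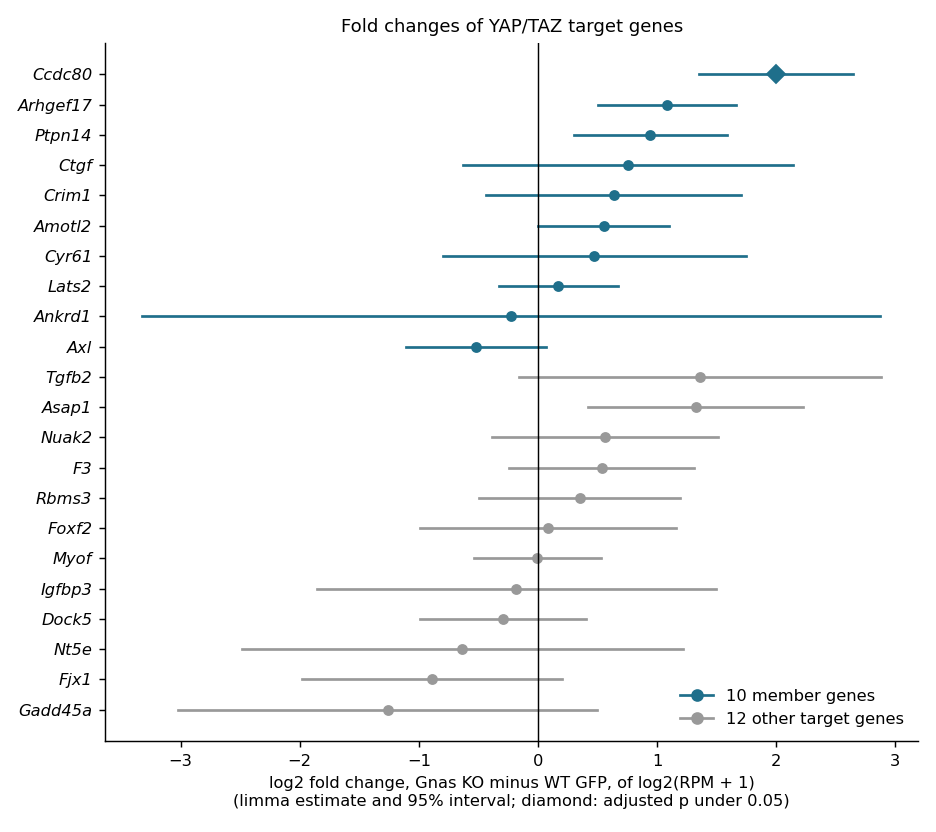
Log2 fold change (Gnas KO minus WT GFP) with its 95% limma interval for the 10 genes (blue) and for 12 other genes of the YAP/TAZ target signature (grey). Only Ccdc80, the diamond, has an adjusted p under 0.05, and the intervals of Arhgef17, Ptpn14, Amotl2 and Asap1 also lie above 0.

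The 12 other genes of the 22-gene YAP/TAZ target signature did not share a direction. None passed in limma (0 of 12), against 1.73% of all tested genes called higher and 0.576% lower. None passed in edgeR, against 0.567% called higher. In limma 1 of the 12 had an unadjusted p under 0.05, against 17.9% of all tested genes in either direction. These shares apply to the lists below too. Their median log2 fold change was 0.04, with 6 positive and 6 negative. Asap1, which encodes an ARF GTPase-activating protein, stood at 168 and 330 RPM in Gnas KO 1 and 2, against 94.4 and 92.6 RPM in WT GFP 1 and 2 (log2 fold change 1.32, limma adjusted p = 0.153). DESeq2 called it (adjusted p = 0.0207), as the 1 of 12 called higher, against 5.14% of all genes that it tested. Without WT GFP 1, 1 of the 12 passed as higher and 1 as lower, and without WT GFP 2, 2 passed as higher and 3 as lower. In these fits, here and for the lists below, 13.8% of all tested genes were called higher and 6.89% lower without WT GFP 1, and 9.15% and 6.82% without WT GFP 2. Tgfb2, a TGF-beta ligand gene, stood at 67.7 and 50.9 RPM in Gnas KO 1 and 2, against 11.6 and 41.6 RPM in WT GFP 1 and 2 (log2 fold change 1.36, limma adjusted p = 0.321). The KO libraries were above both controls for Asap1, Tgfb2, the tissue factor gene F3 (476 and 293 against 284 and 232 RPM) and the kinase gene Nuak2 (61.1 and 58.3 against 28.1 and 57.2 RPM).

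At the other end, Gadd45a, a stress-induced growth arrest gene, stood at 191 and 136 RPM in Gnas KO 1 and 2, against 802 RPM in WT GFP 1 and 187 RPM in WT GFP 2 (log2 fold change -1.26, limma adjusted p = 0.411). Its high library was WT GFP 1, the control in which Ctgf, Cyr61, Crim1 and Ankrd1 were low. Fjx1 (6.70 and 7.00 against 19.7 and 9.20 RPM) and Dock5 (32.8 and 32.4 against 33.2 and 48.4 RPM) were below both controls in both KO libraries. The binding protein gene Igfbp3 (65.6 and 103 against 183 and 47.2 RPM) and the ectonucleotidase gene Nt5e (3.32 and 4.04 against 2.49 and 14.1 RPM) were split between the controls in opposite directions. Foxf2, Myof and Rbms3 overlapped between the groups, with log2 fold changes of 0.08, -0.00462 and 0.35.

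The cofactor genes themselves lay on opposite sides of the controls, and neither passed in limma. Yap1 stood at 255 and 261 RPM in Gnas KO 1 and 2, against 187 and 198 RPM in WT GFP 1 and 2 (log2 fold change 0.42, SE 0.19, limma adjusted p = 0.341). Wwtr1, the TAZ gene, stood at 64.4 and 75.8 RPM in Gnas KO 1 and 2, against 119 and 112 RPM in WT GFP 1 and 2 (log2 fold change -0.71, SE 0.21, limma adjusted p = 0.176). DESeq2 called Wwtr1 as lower (adjusted p = 0.0419), and over 13 alternatives its adjusted p ran from 0.0419 to 0.843. Both genes kept their groups apart, and the controls were close to each other. These are transcript levels, and YAP and TAZ are mainly regulated by phosphorylation and location, which were not measured.

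Of the TEAD genes, Tead3 stood at 299 and 251 RPM in Gnas KO 1 and 2, against 128 and 149 RPM in WT GFP 1 and 2. The groups did not overlap (log2 fold change 0.99, SE 0.22, limma adjusted p = 0.106). It passed with DESeq2 (adjusted p = 0.0327), without WT GFP 1 (0.0254) and without WT GFP 2 (0.0122), and over 13 alternatives ran up to 0.75. Tead4 had 9.16 and 10.6 RPM against 7.10 and 5.86 RPM (log2 fold change 0.55, limma adjusted p = 0.429), and Tead2 had 114 and 130 RPM against 141 and 141 RPM (-0.21, limma adjusted p = 0.625). Tead1 (70.3 and 70.2 against 77.9 and 56.4 RPM) overlapped, and the sign of its fold change depended on the scaling.

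Of 26 genes of the Hippo kinases, scaffolds, cofactors and TEAD factors, 1 rose, 0 fell in limma and 25 did not pass. Over all tested genes the shares were 1.73% higher and 0.576% lower. The median log2 fold change of the 26 was 0.26. At an unadjusted p under 0.05 there were 4 higher and 2 lower, against 17.9% of all tested genes in either direction. Without WT GFP 1, 5 passed as higher and 1 as lower, and without WT GFP 2, 3 and 1. Fat4, a giant protocadherin linked to Hippo signalling in tissue growth, rose to 172 and 161 RPM in Gnas KO 1 and 2, against 30.8 and 30.6 RPM in WT GFP 1 and 2. The replicates of each group lay close together, and the KO mean was 5.42 times the control mean (log2 fold change 2.40, SE 0.20, limma adjusted p = 0.0196). Dchs1, the gene of its binding partner and picked with its values in view, had 45.1 and 46.8 RPM in Gnas KO 1 and 2, against 17.1 and 6.90 RPM in WT GFP 1 and 2 (log2 fold change 1.97, limma adjusted p = 0.11). Map4k4, a kinase that can act on LATS, stood at 141 and 137 RPM in Gnas KO 1 and 2, against 317 and 329 RPM in WT GFP 1 and 2. It lay at 0.43 times the control mean (log2 fold change -1.21, SE 0.19, limma adjusted p = 0.0522), with no overlap. A pseudocount of 5, a filter at 5 RPM and DESeq2 put it past the threshold (adjusted p = 0.0497, 0.0484 and 1.59e-05). DESeq2 called 493 of all 11638 tested genes lower. Map4k4 did not pass with a pseudocount of 0.5 (limma adjusted p = 0.0547), no filter (0.0884) or the replicate block (0.0568). Nor did it pass with TMM scaling (0.0504), median-of-ratios scaling (0.0516) or edgeR (0.0765).

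**Figure D4:**
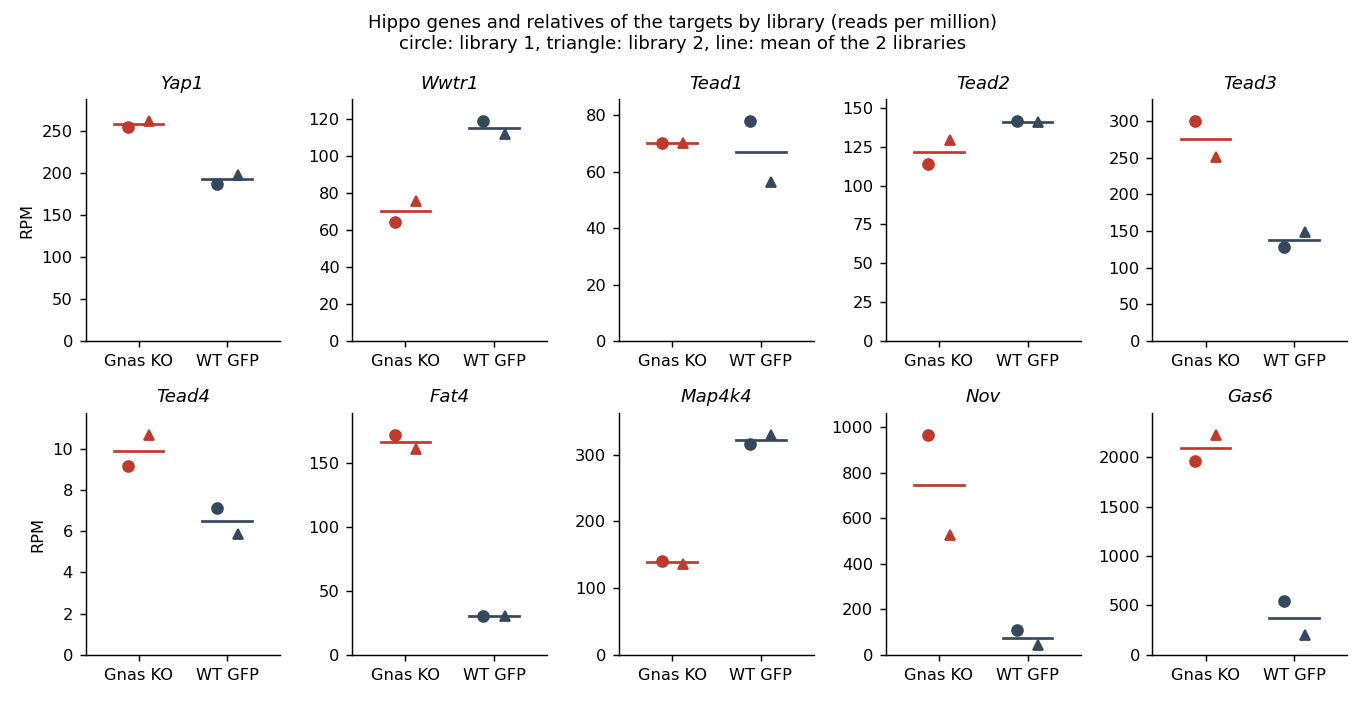
RPM by library of the YAP and TAZ genes (Yap1, Wwtr1), the 4 TEAD genes, Fat4, Map4k4 and 2 relatives of the targets (Nov, Gas6), with the Gnas KO libraries on the left of each panel and each axis from 0. Fat4 lies at 161 and 172 RPM in the KO libraries, against 30.6 and 30.8 RPM in the controls, and Map4k4 at 137 and 141 RPM, against 317 and 329 RPM.

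Paralogues and partners of the targets were read as a further list of 10, of which 9 were measured and 8 tested. None passed in limma or in edgeR (0 of 8). In limma 2 had an unadjusted p under 0.05, against 17.9% of all tested genes in either direction. DESeq2 called the same 2, Nov and Gas6, as higher, against 5.14% of all genes that it tested. Nov, a CCN family gene like Ctgf and Cyr61, stood at 965 and 527 RPM in Gnas KO 1 and 2, against 108 and 41.7 RPM in WT GFP 1 and 2. Each KO library was above each control, and the ratio of means was 9.95 (log2 fold change 3.39, SE 0.53, limma adjusted p = 0.0516). With a pseudocount of 5 the adjusted p was 0.0483. Gas6, which encodes the ligand of the Axl receptor, stood at 1962 and 2220 RPM in Gnas KO 1 and 2, against 546 and 203 RPM in WT GFP 1 and 2. The ligand gene was thus above both controls in both KO libraries (ratio of means 5.58, log2 fold change 2.64, SE 0.50, limma adjusted p = 0.0754) while the receptor gene Axl was below them. Without WT GFP 1, 5 of the 8 passed as higher, and without WT GFP 2, 2 did.

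Contractile genes driven by serum response factor are read beside YAP targets because Ctgf, Cyr61 and Ankrd1 are known to respond to it as well. Of 16 listed genes 15 were tested: 1 rose, 0 fell in limma and 14 did not pass, with a median log2 fold change of 0.45. Over all tested genes limma called 1.73% higher and 0.576% lower. The median of these 15 was 1.13 against WT GFP 1 alone and 0.03 against WT GFP 2 alone. In limma 4 had an unadjusted p under 0.05, all higher, against 1380 of all 11638 tested genes that were higher and 17.9% in either direction. Mylk, the myosin light chain kinase gene, stood at 19.8 and 27.1 RPM in Gnas KO 1 and 2, against 3.85 and 4.60 RPM in WT GFP 1 and 2 (log2 fold change 2.21, SE 0.32, limma adjusted p = 0.0428). Its call was lost with no filter (0.103), with median-of-ratios scaling (0.0506) and with edgeR (0.0612), among 13 alternatives that ranged up to 0.647. Vcl, the gene of the focal adhesion protein vinculin, stood at 1181 and 1206 RPM in Gnas KO 1 and 2, against 340 and 651 RPM in WT GFP 1 and 2 (log2 fold change 1.34, limma adjusted p = 0.157). Without WT GFP 2, 8 of the 15 passed as higher, against 9.15% of all tested genes. Without WT GFP 1, 2 passed as higher, against 13.8%, and 2 as lower, against 6.89%. The control gap seen in Ctgf and Ankrd1 was present here too: 13 of 15 genes were higher in WT GFP 2 than in WT GFP 1, by a median log2 difference of 0.87, against -0.12 over all tested genes.

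Of 10 TGF-beta response genes, a pathway that also induces Ctgf, none passed in limma (0 of 10) or edgeR. In limma 2 were higher and 2 lower at an unadjusted p under 0.05, against 17.9% of all tested genes in either direction. DESeq2 called 2 as lower, against 493 of all 11638 tested genes. Without WT GFP 1, 1 passed as higher and 4 as lower, and without WT GFP 2, 3 and 2. Pmepa1 stood at 91.8 and 75.4 RPM in Gnas KO 1 and 2, against 185 and 250 RPM in WT GFP 1 and 2 (log2 fold change -1.36, SE 0.25, limma adjusted p = 0.0703). Skil, a Smad-binding repressor gene, stood at 26.3 and 27.5 RPM in Gnas KO 1 and 2, against 53.4 and 57.8 RPM in WT GFP 1 and 2 (log2 fold change -1.02, SE 0.22, limma adjusted p = 0.103). Both genes lay below the controls without overlap. Ltbp2 (1510 and 1888 against 417 and 886 RPM) and Ldlrad4 (57.2 and 46.1 against 28.8 and 32.0 RPM) lay above them without overlap. The median log2 fold change of the 10 was 0.47, with 6 positive and 4 negative. It was 0.59 against WT GFP 1 alone and -0.26 against WT GFP 2 alone. Of these 10, 8 were higher in WT GFP 2 than in WT GFP 1, with a median log2 difference of 0.55, as were 8 of the 10 target genes, against 4883 of all 11638 tested genes. The counts were 6 of the 12 other signature genes, 8 of 26 Hippo genes and 2 of 8 paralogues and partners.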

How the data were processed

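RNA was reverse transcribed and amplified with an Ion AmpliSeq mouse transcriptome panel and prepared on an Ion Chef, per the labels' protocols. The authors deposited 1 table of RPM values for 23930 amplicons. The aligner, the counting and the genome build behind it are not stated in the labels. RPM divides out library size only. Gene symbols were taken from the amplicon names, since 27 gene names differed from them. Amplicons differ in efficiency, so the tests and fold changes compare each gene with itself between libraries. The marker sums add levels over genes and are weighted by these efficiencies.

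Whole reads were recovered from the RPM steps: 100% of non-zero values lay within 0.02 read of a whole number. The 11638 genes that reached 1 RPM in 2 or more libraries were tested with limma 3.58.1 (lmFit, eBayes with trend, two-sided) on log2(RPM + 1) in R 4.3.3, Benjamini-Hochberg adjusted, threshold 0.05. Log2 fold changes are on that scale and understate changes of low genes. The procedure was tested on simulated data with 50 genes changed at each fold. It recovered 1 of 50 genes changed 2-fold, 23 of 50 changed 4-fold, 48 of 50 changed 8-fold and 50 of 50 changed 16-fold. The same run gave 14 false calls among the genes left unchanged, so a gene that passed can be a false call. Changes near 2-fold were mostly missed, and a gene that did not pass is not shown to be unchanged. Each simulated gene had the same dispersion in both groups, whereas the real controls stood further apart than the KO libraries. The alternatives were pseudocounts of 0.5 and 5, no filter or a filter at 5 RPM, TMM or median-of-ratios scaling, the replicate number as a block, leaving out single libraries, and edgeR 4.0.16 (quasi-likelihood) and DESeq2 1.42.0 on the recovered reads.

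Of the lists, all genes of the target signature are named, with Yap1, Wwtr1 and the TEAD genes. From the others come the genes past the threshold, or at least the 2 with the smallest p. Lists leave out the 10 members. The members and lists were chosen with earlier results of these data known. Marker lists also covered endothelial cells (summed level 19.6 and 38.1 RPM in Gnas KO 1 and 2, 11.8 and 92.9 RPM in WT GFP 1 and 2), adipocytes (15.5 and 31.6 against 8.18 and 30.3 RPM) and skeletal muscle (42.8 and 116 against 58.0 and 114 RPM). Figures used Python 3.11.15 with matplotlib 3.10.9.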

Additional observations from a re-analysis of the deposited data

How the results depend on the processing

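Over all genes limma called 201 higher and 67 lower in Gnas KO. The counts were 56 and 18 with no filter, 66 and 27 with edgeR, 598 and 493 with DESeq2, and 301 and 123 with the replicate block. With single libraries left out they ranged from 0 to 1609 higher and from 0 to 802 lower. The replicate numbers pair nothing that the labels name: the deviations of same-numbered libraries from their group means correlated at 0.164 across genes, a single value from 2 pairs. The median fold change of all genes moved by -0.10 in edgeR and -0.11 in DESeq2, so fold changes in those fits are read against that shift.

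Of the 10 targets, 1 was higher in limma, 0 with no filter, 0 with edgeR and 3 with DESeq2. Leaving out single libraries gave 0 to 6 higher, 0 to 1 lower and a median log2 fold change of 0.15 to 1.15. The cause was not tested.

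Among the 12 other target genes, DESeq2 called 1 higher, and leaving out libraries gave 0 to 2 higher and 0 to 3 lower. Of the Hippo genes 3 were higher with DESeq2, and 1 (pseudocount of 5), 1 (filter at 5 RPM) and 2 (DESeq2) were lower, with 0 to 5 higher and 0 to 1 lower when libraries were left out. Of the paralogues and partners, 1 was higher with a pseudocount of 5, 1 with a filter at 5 RPM, 1 with TMM scaling, 2 with the replicate block (Nov, adjusted p = 0.00753, and Gas6, 0.036) and 2 with DESeq2, and 0 to 5 with libraries left out. Of the contractile genes, 0 were higher with no filter, 0 with median-of-ratios scaling and 0 with edgeR, with 0 to 8 higher and 0 to 2 lower when libraries were left out. Of the TGF-beta response genes DESeq2 called 2 lower, and leaving out libraries gave 0 to 3 higher and 0 to 4 lower.

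The sign of a fold change turned for 7 named genes, none of which passed in limma. With single libraries left out, the log2 fold change ran from -0.25 to 1.19 for Cyr61, -2.16 to 1.71 for Ankrd1, -0.13 to 0.13 for Myof, -1.15 to 0.78 for Igfbp3, -0.42 to 0.59 for Foxf2, -1.69 to 0.42 for Nt5e and -0.15 to 0.31 for Tead1. Foxf2 was at -0.096 with edgeR and -0.11 with DESeq2. Tead1 was at -0.0044 with median-of-ratios scaling, -0.0015 with edgeR and -0.014 with DESeq2.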
